A study of Homo sapiens with 6 samples.

Results

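The kinesin superfamily genes were examined in a T-cell leukaemia line that overexpressed the transcription factor MEF2C. Members were the protein-coding genes in the count files whose symbol is KIF followed by digits and an optional letter, or KIFC1 to KIFC3. The rule gave 42 genes among the 78932 gene identifiers counted, 12 mitotic kinesins named in the rule and 30 others. Of these, 31 had enough reads to be tested, all 12 mitotic kinesins and 19 of the others. KARPAS-45, the line used, was established from a human T-lineage leukaemia and is known for a KMT2A-FOXO4 fusion, which both groups share. The control group comprised 3 libraries labelled wild type, and the MEF2C-OE group 3 libraries of cells given a lentiviral vector in which the EF1A promoter drives MEF2C linked to mCherry. FACS for mCherry took place at 120 hours from transduction. The sources used here do not state if the control cells were given a vector or sorted. All 6 libraries are labelled as technical replicates, so the p-values describe the spread of libraries and not of cultures.

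Kinesins are motor proteins that hydrolyse ATP to move along microtubules or to shorten their ends. One branch of the superfamily builds and operates the mitotic spindle: its members slide microtubules apart, push chromosome arms, control microtubule length and organise the midzone where the cell divides. Many of those genes are transcribed in late cell cycle phases, through promoters that carry a CHR element (cell cycle genes homology region) and CCAAT boxes bound by the factor NF-Y. The other branch carries vesicles, mitochondria, lysosomes and ciliary components, mostly towards microtubule plus ends, and several of its members act chiefly in neurons. In T cells, microtubule motors also position the centrosome and granules at the contact with a target cell.

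Each library had between 48218497 and 56890745 reads in genes, and levels are given in CPM, read counts scaled to a common library size. MEF2C itself was counted 40, 29 and 41 times with MEF2C-OE against 10, 1 and 0 times in control. Its level was low in both groups, at means of 0.68 CPM with MEF2C-OE and 0.066 CPM in control (log2 fold change 3.28 with SE 0.6). The reason for the low level was not tested. As a group the line's T-lineage markers were present. The 9 markers summed to 3706 to 3754 CPM in the control libraries and 3080 to 3259 CPM in the MEF2C-OE libraries. Of the 9, 6 were called lower, where 20.2% of all genes tested were, and 29% of those of at least 30 CPM. CD28 had only 7 to 31 reads in a library. With each library's trend on GC content and length removed, 4 of the 9 were called lower and 2 higher, against 20% and 21% of all genes. The part of these markers in the kinesin results was not tested. Markers of other lineages summed to at most 13.4 CPM (5 B-lineage genes), 1.84 CPM (5 myeloid genes), 1.74 CPM (4 epithelial genes) and 0.0183 CPM (3 erythroid genes), with MS4A1, EPCAM, HBB and ALAS2 at 0 reads in every library.

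All 12 mitotic kinesins were higher in the MEF2C-OE cells, by small amounts. The rises ran from 5.02% for KIF22 to 27.6% for KIF11, a range of 0.07 to 0.35 on the log2 scale, with a median of 0.22. Each of the 12 passed the edgeR quasi-likelihood test at a Benjamini-Hochberg adjusted p under 0.05, the threshold used throughout, whereas 20.8% of the 19086 genes tested were called higher and 20.2% lower. Among the 6738 genes of at least 30 CPM, a level that each of the 12 exceeded, 38.3% were called higher. In each of the 12 genes the lowest MEF2C-OE library lay above the highest control library, an order found for 24.4% of all genes tested. The median log2 fold change of all genes tested was -0.01. In RNA from bulk cells, a larger share of cells in late cell cycle phases and more transcript per cell cannot be told apart.

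**Figure D1:**
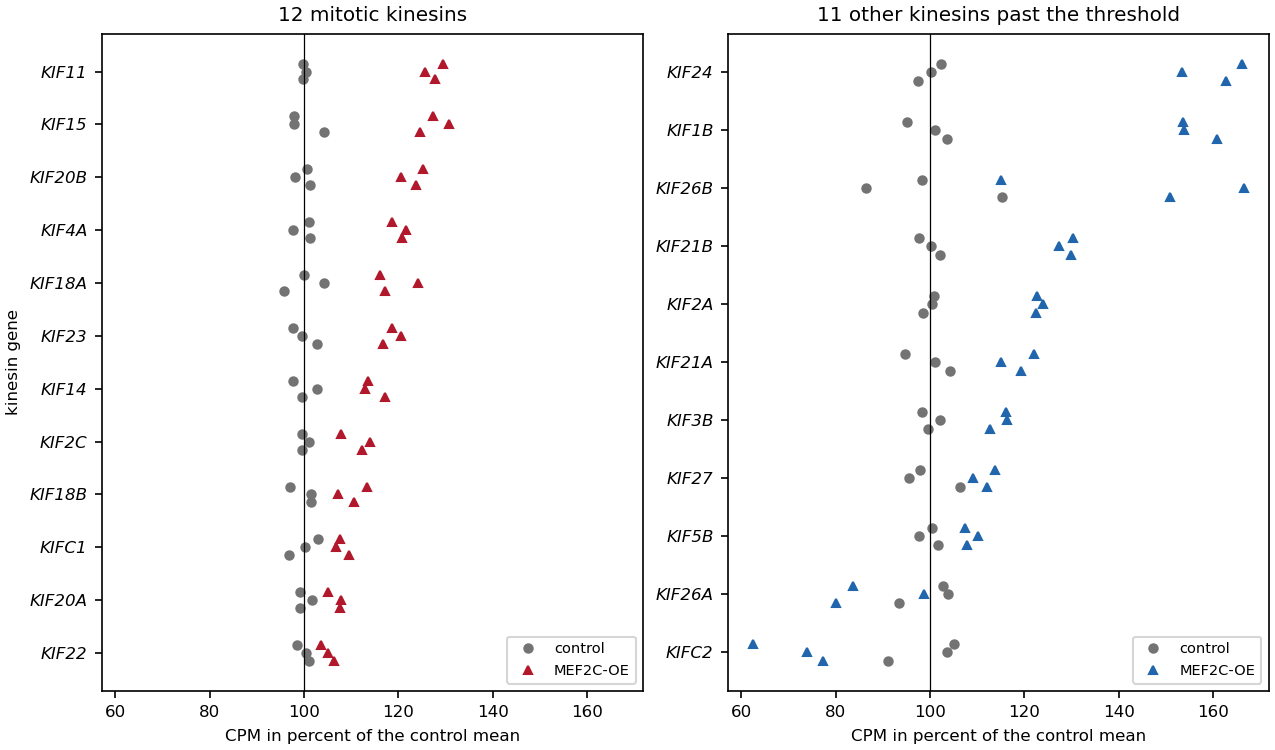
CPM of each library in percent of the gene's mean over the 3 control libraries, for the 12 mitotic kinesins (left) and the 11 other kinesins past the threshold (right), with circles for control and triangles for MEF2C-OE libraries. In every mitotic kinesin the 3 triangles lie to the right of the 3 circles, whereas KIF26B and KIF26A overlap in the right panel.

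The motors that separate and focus the spindle poles included the largest rise of the mitotic class. KIF11 (Eg5, ENSG00000138160.7), the tetrameric motor that slides antiparallel microtubules apart to make the spindle bipolar, had 162, 163 and 162 CPM in the control libraries and 208, 204 and 211 CPM in the MEF2C-OE libraries (adjusted p = 1.6e-15, log2 fold change 0.35 with SE 0.025). Its control libraries lay within 2 CPM of each other, and the groups stood far apart. KIF15, a plus-end motor that can maintain bipolar spindles beside KIF11, had 130.2, 122 and 122 CPM in control and 156, 163 and 159 CPM in MEF2C-OE libraries (adjusted p = 1.5e-13, log2 fold change 0.35 with SE 0.029). Control replicate 1 was the highest control library for KIF15 and still lay below every MEF2C-OE library. KIFC1 (HSET), a minus-end motor that bundles spindle microtubules and clusters extra centrosomes, rose less: its control libraries had 119, 123 and 127 CPM and its MEF2C-OE libraries 135, 131 and 132 CPM (adjusted p = 0.0017, log2 fold change 0.11 with SE 0.029).

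Motors that act on chromosomes and microtubule ends covered the range from the smallest rise upwards. KIF4A, a chromokinesin that also limits microtubule length at the anaphase midzone, had 70.3, 67.9 and 70.2 CPM in control and 83.8, 84.5 and 82.4 CPM in MEF2C-OE libraries (adjusted p = 1.4e-08, log2 fold change 0.27 with SE 0.034). KIF18A, which dampens chromosome movement at the metaphase plate, was the least read of the 12 genes, with 36.8, 40.1 and 38.5 CPM and 45.1, 47.8 and 44.7 CPM in the respective groups (adjusted p = 1.9e-05, log2 fold change 0.25 with SE 0.047). For KIF18B, which acts on astral microtubule ends together with KIF2C, the control libraries had 162, 162 and 155 CPM and the MEF2C-OE libraries 176, 171 and 180.5 CPM (adjusted p = 2.8e-05, log2 fold change 0.14 with SE 0.027). The depolymerase gene KIF2C (MCAK), which corrects faulty kinetochore attachments, had 129, 131 and 129 CPM in control and 146, 148 and 140.0 CPM in MEF2C-OE libraries (adjusted p = 1.3e-05, log2 fold change 0.15 with SE 0.028). KIF22 (Kid), which pushes chromosome arms away from the poles, showed the smallest rise, from 169.6, 169 and 165 CPM in control to 179, 177 and 174 CPM in MEF2C-OE libraries (adjusted p = 0.022, log2 fold change 0.07 with SE 0.025). The gap between the KIF22 groups was narrow, and its call was lost if control replicate 3 was left out (adjusted p = 0.12), and likewise for MEF2C-OE replicate 1 (0.091).

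Motors of the midzone and of cytokinesis rose in all 4 cases. KIF20B (MPHOSPH1), which acts in the last step of cell separation, had 86.1, 83.3 and 85.5 CPM in control and 105, 102 and 106 CPM in MEF2C-OE libraries (adjusted p = 1.0e-10, log2 fold change 0.30 with SE 0.031). KIF23 (MKLP1), the motor subunit of the centralspindlin complex, rose from 104, 101 and 99.1 CPM to 118, 122 and 120.5 CPM (adjusted p = 5.3e-09, log2 fold change 0.25 with SE 0.03). KIF14, which recruits citron kinase to the midbody, had 92.0, 95.1 and 90.3 CPM in the control libraries and 108, 104 and 105 CPM in the MEF2C-OE libraries (adjusted p = 1.5e-06, log2 fold change 0.20 with SE 0.031). KIF20A (MKLP2), which moves the chromosomal passenger complex to the midzone, changed little: 60.1, 61.6 and 60.1 CPM against 65.2, 65.4 and 63.7 CPM (adjusted p = 0.034, log2 fold change 0.10 with SE 0.037). The 2 groups of KIF20A libraries did not overlap, but its call was lost on removal of control replicate 1 or 3 or of MEF2C-OE replicate 1 or 2 (adjusted p = 0.071 to 0.095). KIF20A and KIF22 were also the mitotic kinesins whose call ended with no count filter (adjusted p = 0.072 and 0.075). Asked to exceed a 1.1-fold change, the edgeR test called 7 of the 12 higher, where it called 11.7% of all genes higher.

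**Figure D2:**
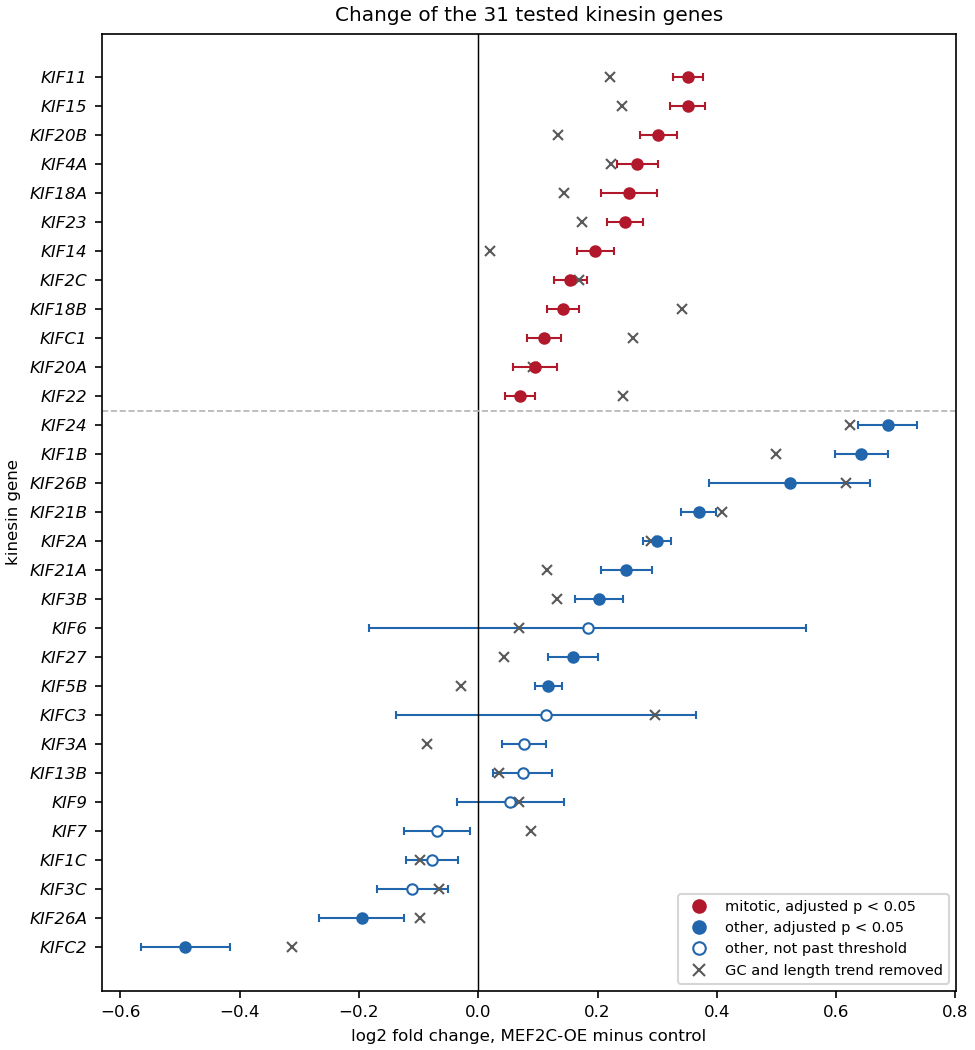
Log2 fold change of MEF2C-OE against control for the 31 tested kinesins, with bars of 1 standard error, filled circles for genes past an adjusted p of 0.05, and crosses for the value with each library's GC content and length trend removed. The 12 mitotic genes lie between 0.07 and 0.35, and the other genes spread from -0.49 to 0.69.

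The size of the rise in the mitotic kinesins moved with base composition. Across the 12 genes, which share the same libraries, Spearman's rho between fold change and the transcript's GC content was -0.73, and 0.78 for its length. With each library's trend on GC content and length removed, 11 of the 12 were called higher, where 21% of the 16946 genes with both properties were, and the median was 0.20. The order within the class changed. KIF18B became the largest at 0.34, followed by KIFC1 at 0.26 and KIF22 at 0.24, while KIF11 had 0.22, KIF15 0.24 and KIF20B 0.13. KIF4A had 0.22, KIF23 and KIF2C 0.17 each, KIF18A 0.14 (adjusted p = 0.012) and KIF20A 0.09. KIF14, whose transcript has 38.3% GC, had 0.02 and lost its call (adjusted p = 0.66). After the removal the correlation was 0.68 with GC content and -0.58 with length, so a dependence of opposite sign remained within this class. The order of the mitotic kinesins thus changed with the treatment of composition. Their corrected values ran from 0.02 to 0.34. The part of composition in the rise was not tested.

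The other kinesins were mixed. Of 19 tested, 9 were called higher, 2 lower and 8 did not pass, with a median log2 fold change of 0.12. At a mean of at least 1 CPM, 9 of 18 were called higher and 2 lower, where 26.9% and 25.9% of all genes of that level were (52.8% in either direction). Of the others with a mean of at least 30 CPM, KIF1B, KIF21A, KIF21B, KIF24, KIF27, KIF2A, KIF3B and KIF5B were called higher. KIF13B, KIF1C and KIF3A did not pass. Among all genes of at least 30 CPM 38.3% were higher and 29% lower. Both genes called lower, KIFC2 and KIF26A, had means under 30 CPM (18.1 and 19.4). The part of expression level in the difference between the classes was not tested. Members outside the mitotic class gave both the largest rise and the largest fall of the family. With the GC content and length trend removed 7 of the 19 were called higher and 1 lower, against 21% and 20% of all genes. Their median was 0.07. The class holds more than cargo carriers: KIF2A and KIF24 are microtubule depolymerases, and KIF26A and KIF26B are atypical members known for signalling roles.

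KIF24 had the largest rise. This gene encodes a depolymerase at the mother centriole that restrains the growth of cilia. It had 27.2, 28.0 and 28.6 CPM in the control libraries and 45.4, 42.9 and 46.4 CPM in the MEF2C-OE libraries (adjusted p = 3.0e-15, log2 fold change 0.69 with SE 0.049), and no MEF2C-OE library came near the control range. KIF1B, a carrier of mitochondria and of synaptic vesicle precursors, had 38.3, 37.4 and 35.2 CPM in control and 59.5, 56.8 and 56.8 CPM in MEF2C-OE libraries (adjusted p = 7.1e-16, log2 fold change 0.64 with SE 0.044). Both genes stood clear of the control spread, and both kept a call in every alternative tried, at 0.62 to 0.72 for KIF24 and 0.50 to 0.67 for KIF1B.

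Further rises were called for KIF21B, KIF21A, KIF2A and KIF26B. KIF21B limits microtubule growth and is known from the centrosome movement of T cells at the immunological synapse. It had 103, 101 and 98.2 CPM in control and 131, 128 and 131 CPM in MEF2C-OE libraries (adjusted p = 5.6e-14, log2 fold change 0.37 with SE 0.029). Its paralogue KIF21A had 48.3, 46.8 and 44.0 CPM and 55.3, 53.4 and 56.6 CPM in the same order (adjusted p = 6.5e-06, log2 fold change 0.25 with SE 0.043), and 0.11 with the composition trend removed. The depolymerase gene KIF2A, which works at spindle poles and in neurons, had 218, 222 and 223 CPM in control and 271, 274 and 271 CPM in MEF2C-OE libraries (adjusted p = 4.0e-14, log2 fold change 0.30 with SE 0.023). None of these 3 genes had overlapping groups. KIF26B, an atypical kinesin of WNT5A-ROR signalling, was far less abundant, with 4.59, 3.45 and 3.92 CPM and 6.02, 6.64 and 4.58 CPM in the respective groups (adjusted p = 0.0016, log2 fold change 0.52 with SE 0.14). Here the lowest MEF2C-OE library, replicate 3, lay just below control replicate 1.

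Rises of at most 0.20 were called for KIF3B, KIF27 and KIF5B. KIF3B, a motor subunit of the heterotrimeric kinesin of ciliary transport, had 49.4, 50.7 and 48.8 CPM in control and 56.0, 57.7 and 57.7 CPM in MEF2C-OE libraries (adjusted p = 5.4e-05, log2 fold change 0.20 with SE 0.04), and 0.13 with the composition trend removed. KIF27, a relative of the ciliary regulator KIF7, had 53.7, 48.2 and 49.4 CPM and 56.5, 55.1 and 57.4 CPM (adjusted p = 0.0021, log2 fold change 0.16 with SE 0.042), and lost its call with the composition trend removed (0.04, adjusted p = 0.45). KIF5B, the ubiquitous heavy chain of conventional kinesin and the most read member of the family, had 353, 339 and 349 CPM in the control libraries and 374, 382 and 373 CPM in the MEF2C-OE libraries (adjusted p = 3.9e-05, log2 fold change 0.12 with SE 0.023). Its direction turned with the composition trend removed (-0.03, adjusted p = 0.32).

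Falls were called for 2 members. KIFC2, a minus-end motor described mainly in neurons, had 19.3, 22 and 22.3 CPM in control libraries and 16.4, 15.7 and 13.2 CPM in MEF2C-OE libraries (adjusted p = 5.5e-07, log2 fold change -0.49 with SE 0.074). All 3 MEF2C-OE libraries lay below all 3 control libraries, which 24.4% of genes tested showed, and the fall kept its call with the composition trend removed (-0.31, adjusted p = 3.4e-04). KIF26A, a kinesin without ATPase activity that restrains GDNF-RET signalling, had 19.3, 21.5 and 21.3 CPM and 16.6, 20.4 and 17.3 CPM in the same order (adjusted p = 0.025, log2 fold change -0.20 with SE 0.071). MEF2C-OE replicate 2 lay inside the control range, and the call was lost without control replicate 2 or 3, without MEF2C-OE replicate 1 or 3 (adjusted p = 0.095 to 0.20) and with the composition trend removed (-0.10, adjusted p = 0.25). Transcripts of both genes are rich in GC, at 67.6% for KIFC2 and 70.6% for KIF26A.

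The 8 tested members that did not pass had log2 fold changes of -0.11 to 0.18. KIF3A and KIF3C, partners of KIF3B and its relatives in heteromeric motors, had 0.08 (SE 0.037, adjusted p = 0.10) and -0.11 (SE 0.059, adjusted p = 0.14). KIF3A was called higher when libraries were scaled by their totals (0.10) and without control replicate 1 (0.10), and stood at -0.09 with the composition trend removed. KIF1C, a carrier of vesicles and integrins, had -0.08 and KIF13B, a vesicle motor, 0.07, although all 3 of its MEF2C-OE libraries (34.7, 36.6 and 35.6 CPM) were above all 3 controls (34.5, 33.8 and 33.3 CPM). KIF7, which organises the ciliary tip in Hedgehog signalling, had -0.07, and KIF9, a motor of motile cilia, 0.05. KIFC3 and KIF6, at about 1 CPM or less, had 0.11 and 0.18 with standard errors of 0.25 and 0.37, so changes of that size were not detectable at this depth.

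Another 11 members had too few reads to be tested. KIF12, KIF2B and KIF5C had 0 reads in all 6 libraries, and KIF16B and KIF25 had 1 read in 1 library each. KIF13A had at most 3 reads in a library, KIF19 2, KIF1A 6, KIF5A 8, KIF4B 11 and KIF17 11. KIF1A, KIF5A and KIF5C are known chiefly as neuronal carriers, and KIF2B as a testis-enriched relative of KIF2A. A count of 0 corresponds to up to 3 reads, or 0.0527 to 0.0622 CPM in these libraries, for counting error only. Reads that fall on more than one annotated gene, or that align to more than one place, were not counted, so low counts set no limit on expression where genes overlap or have near copies. KIF4B is a near copy of KIF4A without introns, and reads split between them are uncertain.

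Levels of different kinesins were compared per kilobase of the annotated principal transcript. On this scale KIF2A (87.1 ± 1.09 CPM per kb, SD, n = 3) and KIF22 (79.5 ± 1.05) led in the control libraries. KIF5B (59.0 ± 1.19) and KIF18B (58.0 ± 1.48) followed and did not differ beyond their spread, nor did KIFC1 (45.5 ± 1.42) and KIF2C (45.1 ± 0.394). KIF11 had 33.4 ± 0.121, KIF23 27.3 ± 0.716 and KIF15 25.8 ± 0.947 CPM per kb. KIF18A was the lowest mitotic member at 10.8 ± 0.464, within the spread of KIF27 (10.8 ± 0.618) and KIF3A (10.4 ± 0.369). KIF24 and KIF1B, which rose most, were modest in level at 4.55 ± 0.113 and 3.46 ± 0.15 in the control libraries. KIF26B, KIFC3 and KIF6 closed the order at 0.547, 0.35 and 0.068.

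**Figure D3:**
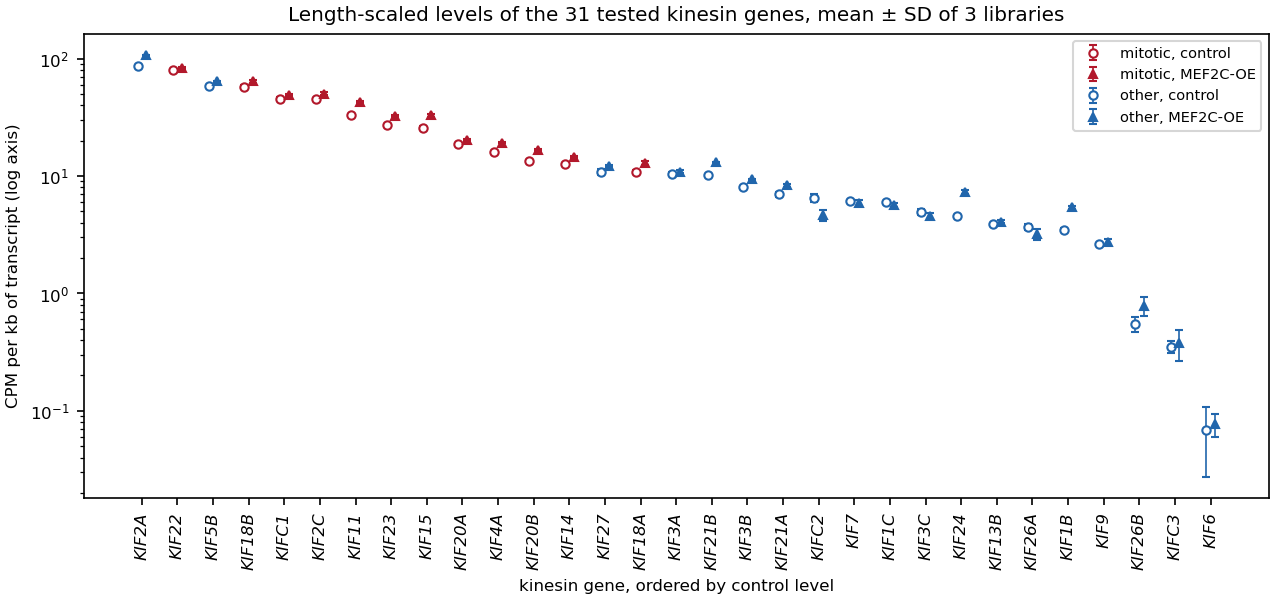
Length-scaled level (CPM per kb, log axis) of the 31 tested kinesins in order of the control mean, with open circles for control, triangles for MEF2C-OE, and bars of 1 SD over 3 libraries. Mitotic members fill most of the upper rows from KIF22 at 79.5 down to KIF18A at 10.8, and only KIF2A and KIF5B of the other class reach their highest levels.

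Summed over their members, the classes gained reads in nearly equal proportion. The 12 mitotic kinesins took 1322, 1319 and 1304 CPM in the control libraries and 1525, 1521 and 1519 CPM in the MEF2C-OE libraries, a ratio of means of 1.16. The 30 others took 1149, 1130.1 and 1136 CPM and 1295, 1309 and 1299.8 CPM, a ratio of 1.14. The mitotic sum divided by the other sum was 1.15, 1.17 and 1.15 in the control and 1.18, 1.16 and 1.17 in the MEF2C-OE libraries, and these values overlapped. KIF5B and KIF2A supplied much of the second sum, so it follows abundant genes, whereas the class medians of 0.22 and 0.12 weigh each gene alike.

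Promoter sequences from RefSeq (GRCh38.p14) were found for all 12 mitotic kinesins and 22 of the 30 others, as windows of 250 bases before to 50 after the start. Among the called members, KIF21B, KIF26B, KIF27 and KIFC2 had no window and were not scanned. A CHR element, written as TTTGAA or TTCGAA on either strand, was present in 10 of 12 mitotic windows, 3 of 22 other windows and 13.5% of 15842 windows of protein-coding genes. In 100 bases before to 50 after the start the counts were 10 and 2, against 5.45% of all windows. The CCAAT box, on either strand and with no overlap with the CHR letters, was in 10 of 12, 7 of 22 and 36.4%. Both motifs together were in 9 of 12, 3 of 22 and 5.57%. The MEF2 consensus site was matched in none of the 34 kinesin windows, and in 2.14% of all. A match describes letters in a window and is not a measured binding site.

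The windows below run from 80 bases before to 10 after the RefSeq start, 5′ to 3′ on the gene's strand, with CHR and CCAAT matches in capitals (TTCAAA and ATTGG are the same motifs on the opposite strand). They show 9 mitotic kinesins with a CHR match in this stretch, and KIF24 because it had the largest rise and was, of the others with a window that were called higher, the one with a CHR match within 100 bases of the start. Their positions in GRCh38 were KIF11 at chr10:92593050-92593139 (plus strand), KIF15 at chr3:44761714-44761803 (plus strand), KIF4A at chrX:70290024-70290113 (plus strand), KIF18A at chr11:28108147-28108236 (minus strand), KIF23 at chr15:69414269-69414358 (plus strand), KIF22 at chr16:29790671-29790760 (plus strand), KIF14 at chr1:200620742-200620831 (minus strand), KIF18B at chr17:44947764-44947853 (minus strand), KIFC1 at chr6:33391743-33391832 (plus strand) and KIF24 at chr9:34329259-34329348 (minus strand).
KIF11: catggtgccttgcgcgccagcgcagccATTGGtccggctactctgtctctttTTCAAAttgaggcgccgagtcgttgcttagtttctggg
KIF15: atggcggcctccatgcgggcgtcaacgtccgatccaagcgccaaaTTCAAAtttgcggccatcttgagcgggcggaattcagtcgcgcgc
KIF4A: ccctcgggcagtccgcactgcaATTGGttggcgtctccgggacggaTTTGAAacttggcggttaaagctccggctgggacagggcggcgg
KIF18A: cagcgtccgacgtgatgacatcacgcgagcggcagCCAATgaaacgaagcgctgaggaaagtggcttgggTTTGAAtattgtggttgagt
KIF23: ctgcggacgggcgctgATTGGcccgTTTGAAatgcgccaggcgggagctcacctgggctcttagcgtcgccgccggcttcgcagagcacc
KIF22: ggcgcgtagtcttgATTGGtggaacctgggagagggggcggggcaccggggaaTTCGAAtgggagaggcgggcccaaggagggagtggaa
KIF14: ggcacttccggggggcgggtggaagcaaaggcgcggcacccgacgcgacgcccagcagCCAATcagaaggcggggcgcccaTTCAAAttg
KIF18B: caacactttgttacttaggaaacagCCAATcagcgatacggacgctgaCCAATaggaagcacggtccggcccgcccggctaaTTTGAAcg
KIFC1: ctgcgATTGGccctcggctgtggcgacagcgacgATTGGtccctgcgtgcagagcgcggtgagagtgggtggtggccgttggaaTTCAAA
KIF24: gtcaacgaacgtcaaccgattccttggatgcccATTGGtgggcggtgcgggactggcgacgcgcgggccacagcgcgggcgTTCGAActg

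In 8 of these 9 mitotic windows a CCAAT box lay upstream of the CHR element, and KIF15 held a CHR element alone. The CHR match began 10 bases before the start in KIF18A, 27 in KIF22, 28 in KIF11, 34 in KIF4A, 35 in KIF15 and 55 in KIF23, and just after it in KIF14, KIF18B and KIFC1. KIF20B had its CHR matches 25 and 31 bases into the transcript and CCAAT boxes 98 and 131 bases before the start. KIF20A held only CCAAT boxes, at 67 and 94 bases before the start, and KIF2C held neither motif. Both genes were called higher, and a link of the motifs with fold change was not tested. KIF24 held a CHR match just after the start and 3 CCAAT boxes. Its RefSeq start lies 17897 bases upstream of the gene's start in GENCODE 29, so the window belongs to the RefSeq transcript. In the 9 mitotic windows the RefSeq and GENCODE starts lay 14 bases (KIF4A) to 287 bases (KIFC1) apart, so the distances depend on the annotation. KIF5B had a CHR match 140 bases before the start, and KIF4B, which was not tested, had both motifs.

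**Figure D4:**
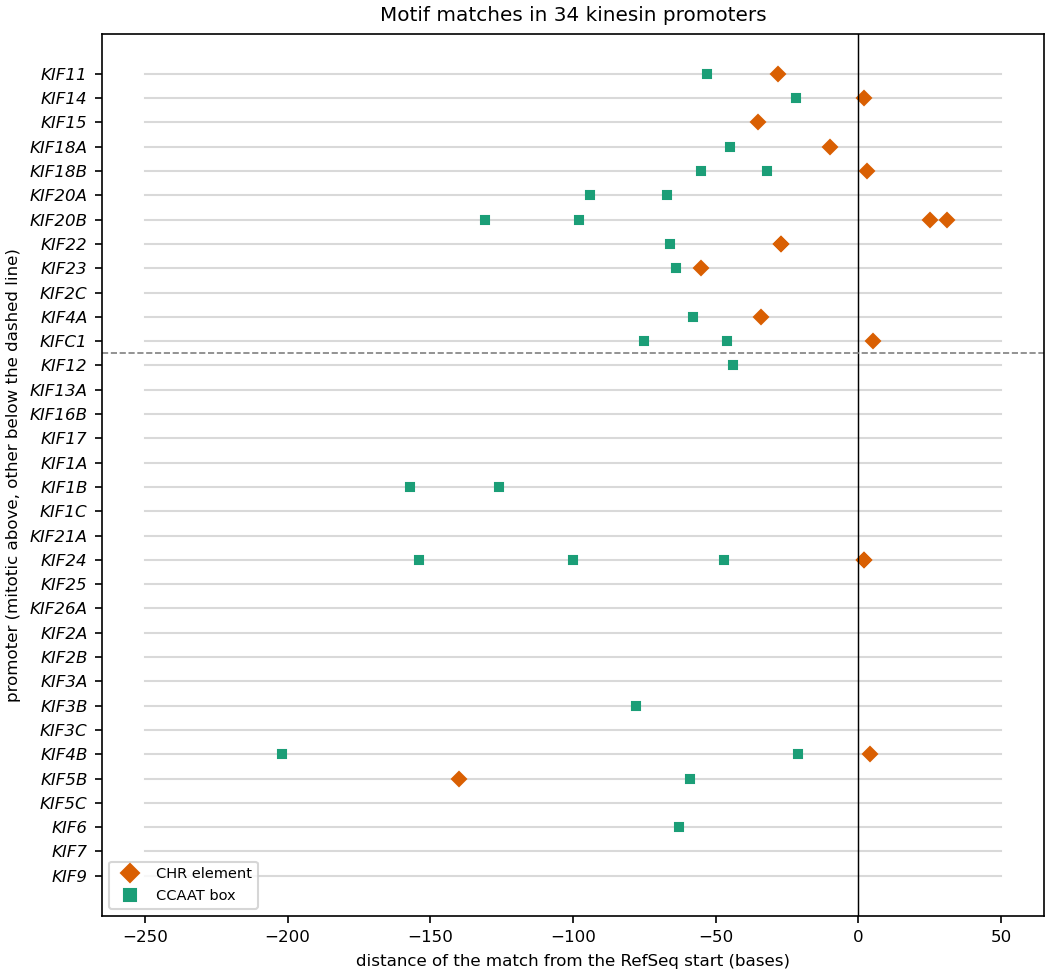
Distance from the RefSeq start, in bases, of CHR matches (diamonds) and CCAAT matches (squares) in 34 kinesin promoter windows, mitotic members above the dashed line. Diamonds fall close to the start in 10 of the 12 mitotic rows and appear in 3 of the 22 rows below.

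Genes that work with the mitotic kinesins on the spindle were given by a list of partners. Of 22 spindle partners, 13 were called higher, none lower and 9 did not pass, with a median log2 fold change of 0.13. Of all genes, 20.8% were higher and 20.2% lower, and of those of at least 30 CPM 38.3% and 29%. With the composition trend removed 12 partners were higher and 1 lower, against 21% and 20% of all genes. CKAP5, a microtubule polymerase, rose from 316 ± 6.55 to 397 ± 8.79 CPM (means ± SD, n = 3; adjusted p = 2.0e-15, log2 fold change 0.33 with SE 0.023), and had 0.21 with that trend removed. CIT, the citron kinase that binds KIF14, had a log2 fold change of 0.28, TPX2, which loads KIF11 and KIF15 on the spindle, 0.25, and BIRC5, the survivin subunit of the passenger complex carried by KIF20A, 0.23. Among those that did not pass were the cyclin gene CCNB1 at 0.06 and the spindle kinase gene AURKA at 0.05. PRC1 and NUSAP1 did not pass either, at 0.14 (SE 0.11) and 0.17 (SE 0.21). Their means of 6.33 and 1.69 CPM were far under 30 CPM, so small changes in them were hard to detect. The reason for their low counts was not tested.

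Of 8 motor and non-motor kinesin genes outside the symbol rule, 3 were called higher and 3 lower, against 20.8% and 20.2% of all genes. Among genes of at least 30 CPM the shares were 38.3% and 29%. With the composition trend removed 3 of the 8 were higher and 1 lower, against 21% and 20% of all genes. CENPE, the kinetochore motor that brings chromosomes to the metaphase plate, had 86.5, 76.2 and 83.7 CPM in control and 120.4, 124 and 124 CPM in MEF2C-OE libraries (adjusted p = 9.5e-18, log2 fold change 0.58 with SE 0.035), a larger fitted change than in any of the 12 mitotic members, and 0.37 with the composition trend removed. KLC1, KLC4 and KLC2, light chains that join cargo to KIF5 heavy chains, had -0.26, -0.20 and -0.11. KLC1 kept its call in every alternative, at -0.32 to -0.21, whereas KLC4 stood at -0.03 with the composition trend removed and lost its call. KLC2 turned direction under that removal and was called higher (0.08, adjusted p = 0.048). STARD9, a mitotic motor of the pericentriolar material, had 0.16 and stood at -0.01 with that trend removed. KIFBP, which sequesters kinesin motors, had 0.18 (call lost without MEF2C-OE replicate 3, 0.15), and KIFAP3, the non-motor subunit beside KIF3A and KIF3B, 0.01 (adjusted p = 0.84).

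Of 16 cargo adaptors, 7 were called higher, 3 lower and 6 did not pass (median 0.13), where 20.8% of all genes were higher and 20.2% lower. Among genes of at least 30 CPM the shares were 38.3% and 29%. With the composition trend removed 10 adaptors were higher and 3 lower, against 21% and 20% of all genes. BORCS5, which recruits ARL8 to lysosomes for kinesin transport, rose from 18.5 ± 1.03 to 26.6 ± 0.67 CPM (adjusted p = 2.1e-09, log2 fold change 0.52 with SE 0.061), and TRAK2, an adaptor of mitochondria, by 0.50. MAPK8IP3 (JIP3), an adaptor of conventional kinesin, fell from 198 ± 7.51 to 148 ± 4.88 CPM (adjusted p = 3.5e-16, log2 fold change -0.42 with SE 0.028), and RHOT2, a mitochondrial GTPase that binds TRAK proteins, had -0.33, or -0.12 with the composition trend removed. Cytoplasmic dynein and dynactin, the minus-end transport machinery, had 6 of 20 tested genes higher and 6 lower (median -0.06). These shares were near those of all genes of at least 1 CPM (26.9% and 25.9%), which at 30 CPM were 38.3% and 29%. With the composition trend removed 2 dynein and dynactin genes were higher and 7 lower, against 21% and 20% of all genes. DYNLL2, a dynein light chain gene, rose from 155 ± 3.43 to 247 ± 6.63 CPM (adjusted p = 5.6e-24, log2 fold change 0.67 with SE 0.026), while its paralogue DYNLL1 had -0.21, and the dynactin genes ACTR1B and ACTR1A had -0.33 and -0.20. With the composition trend removed ACTR1B had -0.14 and ACTR1A -0.11. Intraflagellar transport genes, whose complexes are moved by KIF3 motors, were higher in 8 of 18 cases and lower in 1 (median 0.12). Of all genes, 20.8% were higher and 20.2% lower, and of those of at least 1 CPM 26.9% and 25.9%. With the composition trend removed 9 of these transport genes were higher and 2 lower, against 21% and 20% of all genes. IFT74, IFT81 and IFT88 of the anterograde complex had 0.42, 0.32 and 0.32, IFT22 had 0.28, and IFT172 was the one lower at -0.23.

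**Figure D5:**
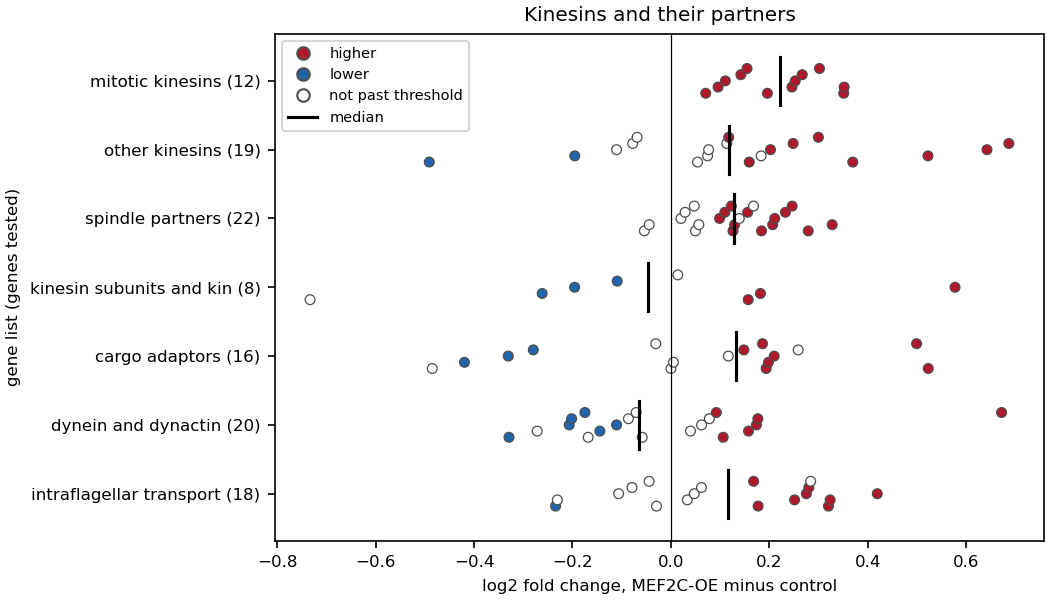
Log2 fold change of each tested gene in the kinesin classes and in 5 lists of kinesin partners, coloured by call, with a vertical bar at each list's median. The mitotic kinesins all lie right of 0 with a median of 0.22, and the dynein and dynactin list centres at -0.06.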

How the data were processed

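RNA from 3 control and 3 MEF2C-OE libraries of KARPAS-45 was sequenced with a TruSeq kit, per the labels' protocols. Deposited were raw counts per gene for each library, which the authors made with Trim Galore, STAR and HTSeq on hg38, per the submitters' processing notes. Versions, annotation release and strand setting: not given in the sources used here. Left out were reads in no feature (20.9% to 21.8% of a file), ambiguous reads (3.31% to 3.46%) and those aligned more than once (4.03% to 4.68%). Exons of 19 kinesins overlap another gene's exons in GENCODE 29, on the opposite strand in 17 of them (among them KIF20A, KIF7 and KIF24) and on the same strand for KIF2A and KIF1B, and their values may hold or lose shared reads.

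Counts were tested in R 4.3.3 with edgeR 4.0.16 (filterByExpr, TMM, robust quasi-likelihood test, Benjamini-Hochberg adjustment over the 19086 genes tested). CPM values are TMM-scaled for tested genes and scaled by library totals for others. SE is the fold change divided by the root of the test's F. Symbols were found for 61481 identifiers. Transcript length and GC content came from the APPRIS principal transcript of GENCODE 29 (GRCh38), known for 88.8% of genes tested and all 42 kinesins. The GC and length correction entered as an edgeR offset, from splines of 5 degrees of freedom. DESeq2 1.42.0 and limma 3.58.1 (voom) were alternatives. Replicate pairs differed by more than counting noise (chi-square per degree of freedom 3.05 to 5.11). The script was tested on simulated counts, with changed genes drawn from all levels. It recovered, with the right sign, 31 of 50 genes changed 1.25-fold and 35 of 50 changed 1.5-fold. At 2-fold it recovered 42 of 50 and at 4-fold 49 of 50. It also called 11 unchanged genes among the 19086 simulated.

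The members and lists were chosen with earlier results of these data known. Values per library were set for the 12 mitotic kinesins and for up to 14 other called members of at least 1 CPM (with the 3 others of highest length-scaled level), and each partner list names up to 4 called genes of largest change. CCNB1, AURKA, PRC1, NUSAP1, KIFAP3, KLC2, STARD9, IFT172 and CD28 were named after values were seen. KIF13B's range was added and the filter of 30 CPM was set then too. IFT56 was not found by symbol. Protein sequences were not analysed here. Figures were drawn with matplotlib 3.10.9.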

Additional observations from a re-analysis of the deposited data

How the results depend on the processing

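The 31 tested kinesins were refitted under 16 alternatives, which gave 495 values: 457 kept direction and side of the threshold, 27 lost a call, 2 gained one and 9 turned direction. The turned values were KIF5B at -0.029, KIF3A at -0.085 and KIF7 at 0.088 with the GC and length trend removed, each the same with the replicate block added, KIF6 at -0.061 without control replicate 1 and -0.031 without control replicate 2, and KIFC3 at -0.075 without MEF2C-OE replicate 3. Of these only KIF5B was called in the reported fit. The mitotic median of 0.22 became 0.24 with library totals, 0.20 with the GC and length trend removed, with or without the replicate block, and 0.25 with KIF2A, KIF2B and KIF4B counted as mitotic. The other median of 0.12 became 0.069 with the trend removed. A test against a 1.1-fold change called 7 mitotic kinesins higher, 1 other kinesin lower, and 2239 genes higher and 2263 lower of all. In it KIF1B, KIF21A, KIF21B, KIF24, KIF26B and KIF2A stayed higher among the others, while KIF3B, KIF27 and KIF5B lost their call. Also 1 other kinesin, not 2, was lower with the trend removed, with and without the block.

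With single libraries left out, 10 to 12 mitotic kinesins were higher, their median was 0.20 to 0.23, the other median 0.071 to 0.14, the difference of medians 0.079 to 0.15, KIF6 -0.061 to 0.78, KIFC3 -0.075 to 0.34, and 1 to 2 other kinesins were lower. The lowest other median and the largest difference both came without MEF2C-OE replicate 3. The cause was not tested. The labels number replicates 1 to 3 in both groups, but same-numbered libraries did not deviate together (correlations of 0.0061, 0.012 and -0.0031 across genes). With the replicate block 12 mitotic and 9 other kinesins were higher and 2 others lower, with 3953 genes higher and 3845 lower of all, close to the 3962 and 3859 without it. Depth limits KIF6 and KIFC3, whose standard errors exceeded their changes.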

Other observations

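Non-coding and pseudogene loci named after kinesins were counted too, 13 in all, and 4 passed the count filter. KIF9-AS1, which is antisense to KIF9, had 402, 344 and 317 reads in the control libraries and 349, 312 and 360 in the MEF2C-OE libraries (log2 fold change -0.07, SE 0.11, edgeR adjusted p = 0.66). Its groups overlapped, as did those of KIF9. KIF23-AS1 had 65, 34 and 28 against 41, 35 and 53 reads (log2 fold change 0.02, adjusted p = 0.97), beside the rise of KIF23. KIF26A-DT, divergent from KIF26A, had 25, 29 and 58 against 22, 25 and 34 reads (-0.49, adjusted p = 0.32), and KIF1C-AS1 19, 13 and 24 against 23, 26 and 27 (0.43, adjusted p = 0.46). The other 9 had at most 6 reads in a library, among them KIF18B-DT with 2 reads in control replicate 3 and 0 elsewhere, and the pseudogene KIF4CP with at most 1. The strand setting of the counting was not stated, so reads of KIF9 and KIF9-AS1, whose exons overlap, cannot be told apart. KIF23-AS1 and KIF1C-AS1 also overlap the spans of KIF23 and KIF1C on the opposite strand, and the same limit may apply to them.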
